A study of Rattus norvegicus with 6 samples.

Results

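RGS proteins are a family of regulators of G protein signalling, and 10 of their genes were followed here in rat dorsal root ganglia, which lie along the spinal cord and hold the cell bodies of sensory neurons. The genes are Rgs2, Rgs3, Rgs4, Rgs7, Rgs8, Rgs9, Rgs10, Rgs16, Rgs17 and Rgs19. They were chosen by name and found by gene ID, and all 10 are among the 14346 genes listed in at least 1 of the 6 libraries. The pSNL group holds 3 libraries of ganglia taken 7 days after partial sciatic nerve ligation, in which a part of the nerve is tied so that injured and spared axons run side by side. The sham group holds 3 libraries of ganglia taken 7 days after a sham operation. The sources used here do not give rat strain, sex, age, ganglion level, side or any pooling. Nothing in the labels says that libraries of a group come from separate animals, so a p-value here reflects library-to-library spread, part of which may be technical. The comparison asks whether the RNA of these regulators differs in the ganglion after nerve injury.

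A G protein-coupled receptor switches on its G protein by loading the α subunit with GTP, and an RGS protein speeds the hydrolysis of that GTP, which ends the signal of both the α and the βγ subunits. RGS proteins thereby set how long opioid, cannabinoid, GABA-B and other inhibitory receptors act on calcium channels, potassium channels and adenylyl cyclase in sensory neurons. The family is sorted into subfamilies by structure. Rgs2, Rgs3, Rgs4, Rgs8 and Rgs16 belong to the R4 subfamily, most of which are small proteins with little beyond the RGS domain. Rgs7 and Rgs9 belong to R7, whose proteins are stable only in a complex with the G protein β subunit encoded by Gnb5. Rgs17 and Rgs19 belong to RZ, which carries a cysteine string near the N-terminus, and Rgs10 belongs to R12.

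The libraries held 4310643 to 4416121 estimated counts each, so 1 CPM, the unit of counts scaled to library size, stands for 4.31 to 4.42 counts, and 11091 genes passed the filter on low counts. Over all of them, 49 genes were higher and 2 lower in pSNL at an adjusted p of 0.05. Known injury genes stood apart by group: the summed level of Atf3, Gal, Npy, Sprr1a, Sox11 and Gap43 was 846, 1599 and 1327 CPM in pSNL replicates 1 to 3, against 304, 357 and 372 CPM in sham replicates 1 to 3. Within pSNL, replicate 1 was lowest on this sum. Of the 15 neuron markers of this tissue, all 15 were above 0 in every library, and they summed to 48189 to 51622 CPM in pSNL and 48790 to 60561 CPM in sham. Sham replicate 3 carried 2309.5 CPM of 10 central glia markers, among them 519 CPM of Mobp, a central myelin gene. The list summed to 87.2 to 147 CPM in the other 5 libraries, and its member Mag is also a marker of myelinating Schwann cells. Skeletal muscle markers summed to 1245 CPM in pSNL replicate 3 and 630.1 CPM in sham replicate 3, and to 19.5 to 30.9 CPM elsewhere.

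Per length of transcript, 3 genes made up most of the RGS RNA in these ganglia. Levels between genes are given as deposited FPKM, fragments scaled to transcript length and library size. Rgs4, which acts on the Gi/o and Gq classes of α subunit, was the highest, at 228 ± 98.3 FPKM in pSNL and 301 ± 52.4 FPKM in sham (SD, n = 3 each). It ranked 396th of 14346 genes by mean level in pSNL and 271st in sham. Rgs10, a short member known from neurons, microglia and platelets, followed at 135 ± 27.7 FPKM in pSNL and 159.8 ± 24.4 FPKM in sham. Rgs3, which also binds βγ subunits, came next, at 79.7 ± 9.58 FPKM in pSNL and 99.0 ± 10.1 FPKM in sham. Together Rgs4, Rgs3 and Rgs10 held 81.7% to 90.8% of the summed FPKM of the 10 genes in each of the 6 libraries. The R4 subfamily held 62.2% to 67.3% of it, R12 24.8% to 28.8%, R7 4.26% to 5.94% and RZ 2.28% to 5.28%.

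The remaining order was Rgs7, Rgs2, Rgs19, Rgs16, Rgs17, Rgs8 and Rgs9 in pSNL, and Rgs7, Rgs19, Rgs2, Rgs17, Rgs16, Rgs8 and Rgs9 in sham. Rgs7 stood at 24.4 ± 3.85 FPKM in pSNL and 28.3 ± 0.15 FPKM in sham. Rgs2 stood at 17.98 ± 4.56 FPKM in pSNL and 12.8 ± 1.87 FPKM in sham, and Rgs19 at 17.8 ± 4.30 and 17.3 ± 4.0 FPKM in pSNL and sham. The other 4 genes averaged at most 2.66 FPKM in pSNL and 3.50 FPKM in sham. In pSNL the ranges over libraries of these neighbours overlapped: Rgs4 and Rgs10, Rgs7 and Rgs2, Rgs2 and Rgs19, Rgs16 and Rgs17, and Rgs17 and Rgs8. In sham they overlapped for Rgs19 and Rgs2 and for each step from Rgs17 down to Rgs9. Rgs4 and Rgs10 thus kept apart in sham, at a lowest Rgs4 value of 240.2 FPKM and a highest Rgs10 value of 178 FPKM, but not in pSNL. The deposited lengths differ widely, from 600 bases for Rgs16 to 3722 bases for Rgs3, so these levels rest on the transcript models the authors used.

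**Figure D1:**
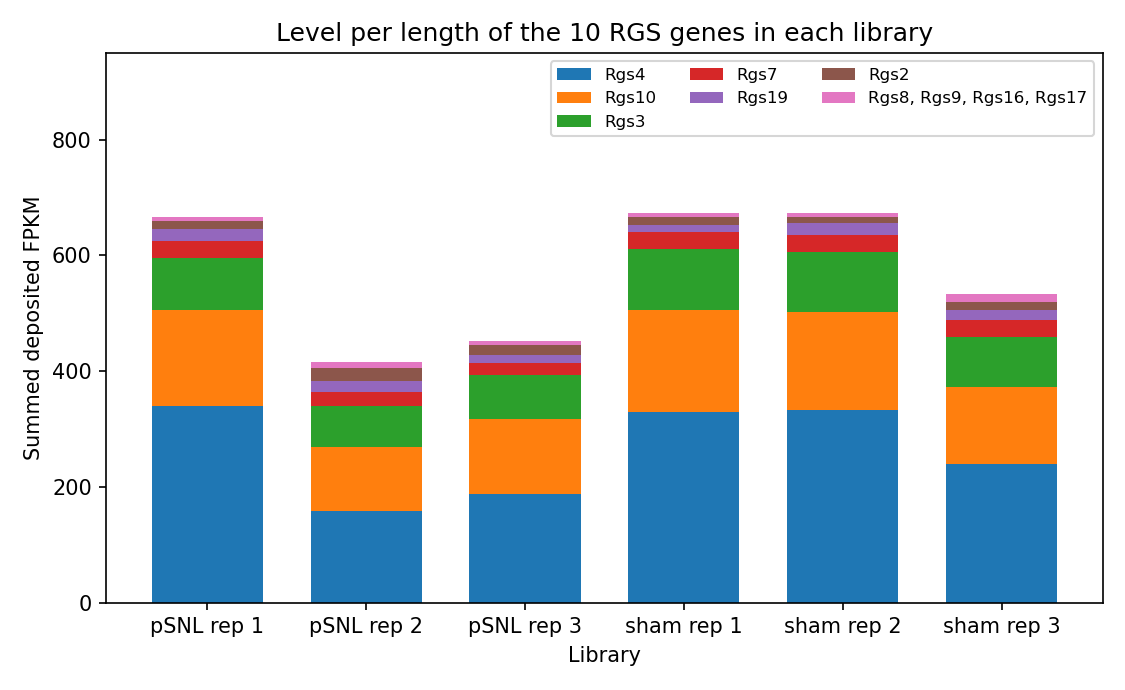
Stacked bars give the deposited FPKM of the 10 RGS genes in each library, with pSNL libraries left and sham libraries right; the last colour joins Rgs8, Rgs9, Rgs16 and Rgs17. Sums reach 666, 416 and 452 FPKM in pSNL replicates 1 to 3 and 674, 674 and 533 FPKM in sham replicates 1 to 3, so pSNL replicate 1 stands close to the highest sham libraries.

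The promoter windows of the 3 abundant genes are shown because those genes carry most of the family's RNA and were each lowest in pSNL replicate 2. Each window runs from 250 bases before to 50 bases after the start of the gene in RefSeq's table for the build GRCr8, which matched all 10 members, and it is read 5′ to 3′ on the gene's strand. Rgs4 lies at chr13:84475835-84476134 on the minus strand, Rgs3 at chr5:81093801-81094100 on the plus strand and Rgs10 at chr1:192418028-192418327 on the minus strand. Rgs3 has many transcript models, and the table gives 1 start. Capitals mark matches, on either strand, to the CCAAT box (CCAAT, which reads ATTGG on the other strand), the TATA box (TATAAA) and the GC box (GGGCGG).
Rgs4: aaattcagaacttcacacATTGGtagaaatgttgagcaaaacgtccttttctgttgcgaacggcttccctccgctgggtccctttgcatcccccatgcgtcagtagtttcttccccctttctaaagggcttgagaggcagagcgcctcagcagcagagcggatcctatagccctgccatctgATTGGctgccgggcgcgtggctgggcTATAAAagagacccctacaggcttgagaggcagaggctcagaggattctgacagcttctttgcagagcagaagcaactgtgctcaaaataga
Rgs3: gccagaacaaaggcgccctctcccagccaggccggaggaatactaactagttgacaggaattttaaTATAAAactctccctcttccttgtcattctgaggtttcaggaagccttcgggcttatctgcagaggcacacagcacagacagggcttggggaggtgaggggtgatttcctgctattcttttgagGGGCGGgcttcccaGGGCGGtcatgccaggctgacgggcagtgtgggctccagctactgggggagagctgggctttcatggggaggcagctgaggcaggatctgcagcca
Rgs10: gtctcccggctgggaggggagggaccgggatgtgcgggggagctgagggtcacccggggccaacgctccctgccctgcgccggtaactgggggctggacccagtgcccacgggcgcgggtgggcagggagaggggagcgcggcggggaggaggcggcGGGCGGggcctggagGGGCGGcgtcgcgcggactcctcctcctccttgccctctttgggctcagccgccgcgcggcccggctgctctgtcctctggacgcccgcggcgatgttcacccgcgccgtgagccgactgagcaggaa
The Rgs4 window holds TATAAA at its bases 209 to 214 and the CCAAT box in reverse at bases 19 to 23 and 183 to 187. The Rgs3 window holds GGGCGG at bases 191 to 196 and 205 to 210, and TATAAA at bases 67 to 72. The Rgs10 window holds GGGCGG at bases 158 to 163 and 173 to 178, and none of the other motifs. No matches overlap in these windows. Their GC content was 52.7% for Rgs4, 57.0% for Rgs3 and 76.3% for Rgs10, where the median of 27457 promoters was 52.3%. Among the 10 members, 7 windows hold the GC box (34.9% of all promoters), 5 the CCAAT box (37.7%) and 2 the TATA box (14.3%). The AP-1 motif TGANTCA is in the Rgs17 window (7.33% of all promoters), and the CRE motif TGACGTNA is in none of the 10 (3.39%). These are matches of letters in 1 window a gene, and nothing about binding was measured.

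With all 6 libraries, no RGS member passed the threshold between pSNL and sham. Of the 10 genes 8 passed the filter on low counts and were tested, and 0 of the 8 had an adjusted p of at most 0.05 in edgeR's quasi-likelihood test, where 0.46% of all tested genes did. DESeq2 called 0 of the 8 as well. Without adjustment 1 of the 8 (Rgs3) had a p under 0.05, against 15.5% of all tested genes. No tested member had groups that did not overlap, against 21.5% of all tested genes. Of the 8 log2 fold changes 6 were negative, against 50.6% of all tested genes, and their median was -0.23, against -0.0024 over all tested genes. Levels of 1 gene between libraries are given below as CPM on TMM-scaled library sizes. The count was different in 1 fit, which was chosen after seeing the data and left out pSNL replicate 1 for its low injury gene sum and sham replicate 3 for its central glia RNA. With 2 libraries left in each group, edgeR called 3 of the 8 members, Rgs3, Rgs4 and Rgs10, all lower in pSNL, where it called 3.5% of all genes. The injury gene sum is itself an outcome of the operation, so pSNL replicate 1 was picked by a measured outcome, and the 3 calls are given as a description. The 2 libraries left out also held the highest pSNL value and the lowest sham value of each of these 3 genes. Leaving them out was therefore bound to widen each difference, and the adjusted p-values of this fit lend the 3 calls no support. RNA was taken from whole ganglia, so fewer cells of a type and less RNA per cell cannot be told apart.

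**Figure D2:**
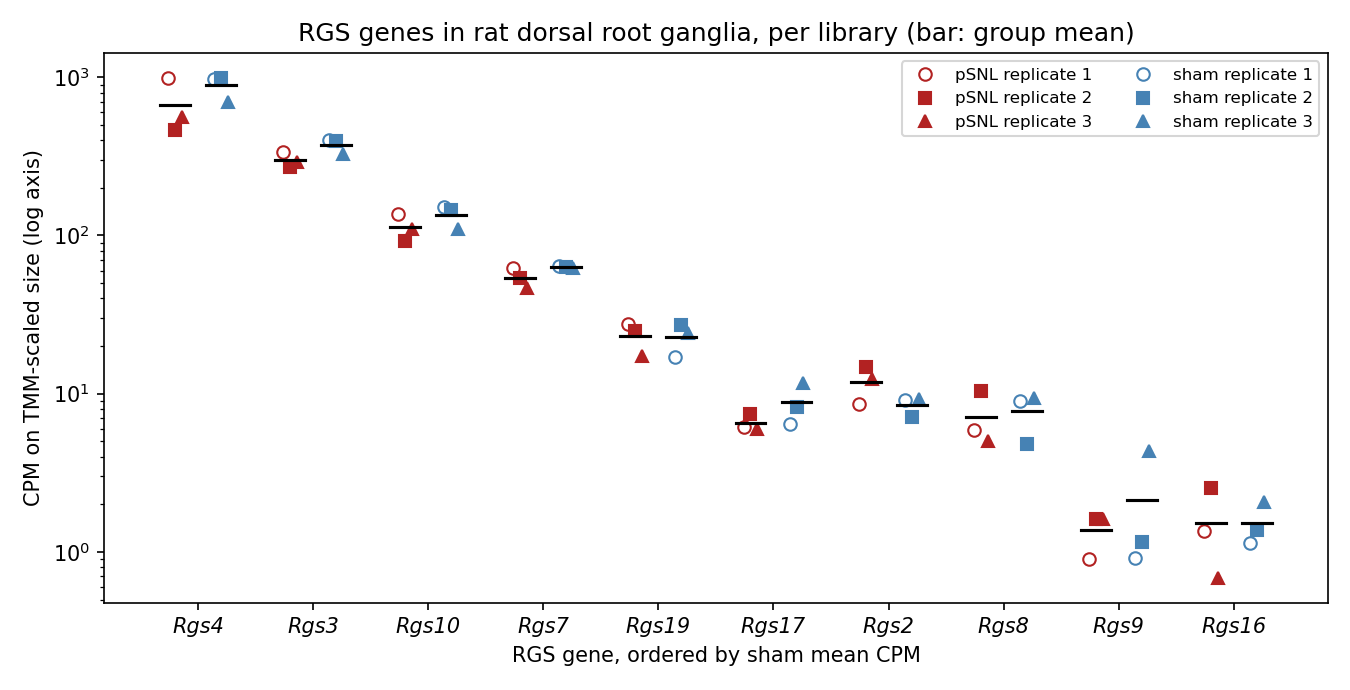
Points give each of the 10 RGS genes in every library as CPM on a log axis, with pSNL (red) left of sham (blue), a marker shape per replicate and a bar at the group mean. For Rgs4, the open circle of pSNL replicate 1 stands among the sham points at 989 CPM, above pSNL replicates 2 and 3 at 465 and 557 CPM.

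Rgs4 showed the widest spread among the abundant members. It stood at 989, 465 and 557 CPM in pSNL replicates 1 to 3, against 977, 989.6 and 699.5 CPM in sham replicates 1 to 3. Replicates 2 and 3 of pSNL lay below each sham library, while pSNL replicate 1 lay among the highest sham values, so the groups overlapped. The log2 fold change was -0.41 ± 0.33 (SE; 95% interval -1.23 to 0.41), and the adjusted p was 0.608. Without pSNL replicate 1 it was -0.79 with an adjusted p of 0.0686, still short of the threshold, and the fits without each of the other 5 libraries gave -0.56 to -0.21. Without both pSNL replicate 1 and sham replicate 3 it was -0.94 (edgeR adjusted p = 0.000857), past the threshold. The pSNL library with the high Rgs4 value was also the pSNL library with the lowest injury gene sum and the lowest Atf3, an injury-induced transcription factor, at 97.6 CPM where pSNL replicates 2 and 3 had 294 and 234 CPM. The sham library with the low Rgs4 value was sham replicate 3, which carried the central glia RNA. It also held muscle RNA, at 630.1 CPM of the markers, but pSNL replicate 3 held more, at 1245 CPM. The part of the injury gene level or of this other RNA in the result was not tested.

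Rgs3 had the smallest p of the members. In chick sensory neurons RGS3 shortens the inhibition of calcium channels by receptors. It stood at 336, 271 and 293 CPM in pSNL replicates 1 to 3, against 402, 395 and 325 CPM in sham replicates 1 to 3. The groups overlapped through a single pair, since pSNL replicate 1 exceeded sham replicate 3. Means were 299.8 ± 32.8 CPM in pSNL and 374 ± 42.4 CPM in sham (SD, n = 3 each). The log2 fold change was -0.32 ± 0.11 (SE; 95% interval -0.56 to -0.075), with an unadjusted p of 0.0155 and an adjusted p of 0.208. It lay between -0.50 and -0.26 in the 15 alternatives, with edgeR, DESeq2 or limma adjusted p between 0.0168 and 0.511. It passed the threshold in 1 of them, without both pSNL replicate 1 and sham replicate 3, where it was -0.50.

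Rgs10 and Rgs7 had smaller differences in the same direction. Rgs10 stood at 137, 92.9 and 111 CPM in pSNL replicates 1 to 3, against 151, 144 and 109.6 CPM in sham replicates 1 to 3. Its lowest value was in pSNL replicate 2, and sham replicate 3 lay among the pSNL values. The log2 fold change was -0.25 ± 0.16 (SE; adjusted p = 0.512), and it lay between -0.40 and -0.13 with 1 library left out. Without both pSNL replicate 1 and sham replicate 3 it was -0.53 and passed the threshold (edgeR adjusted p = 0.0337). Rgs7, which limits Gi/o signals in neurons, stood at 62.2, 53.6 and 46.6 CPM in pSNL replicates 1 to 3, against 64.0, 63.3 and 62.0 CPM in sham replicates 1 to 3. The sham libraries lay within 2 CPM of each other, and pSNL replicate 1 exceeded the lowest of them by less than 1 CPM. The log2 fold change was -0.22 ± 0.12 (SE; 95% interval -0.48 to 0.040; adjusted p = 0.403). It was -0.13 without pSNL replicate 3 and -0.33 without pSNL replicate 1.

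**Figure D3:**
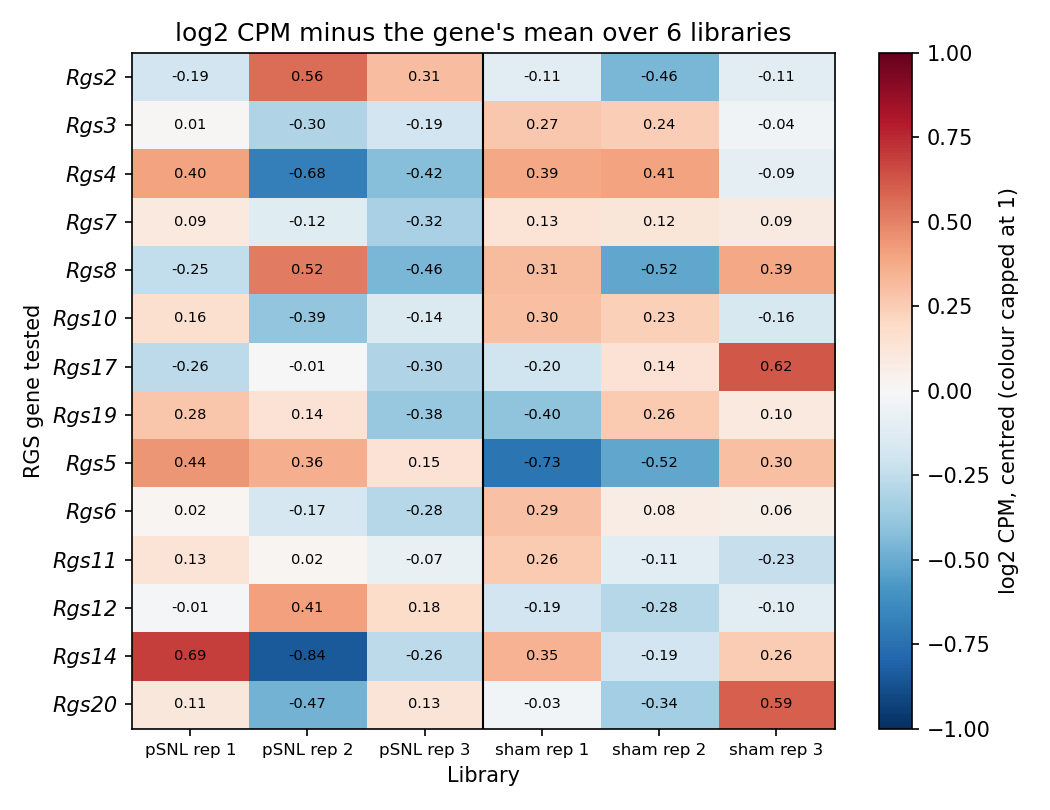
Each cell gives log2 CPM minus the gene's mean over the 6 libraries for the 14 RGS genes tested, with the 8 members above and the 6 other family genes below, and pSNL libraries left of sham libraries. Rgs4 reads 0.40, -0.68 and -0.42 in pSNL replicates 1 to 3 and 0.39, 0.41 and -0.09 in sham replicates 1 to 3, and Rgs3 and Rgs10 are likewise lowest in pSNL replicate 2.

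Of the other R4 members, Rgs2 was the only tested one with a higher mean in pSNL. Rgs2 prefers Gq among α subunits. It stood at 8.63, 14.8 and 12.4 CPM in pSNL replicates 1 to 3, against 9.17, 7.11 and 9.19 CPM in sham replicates 1 to 3, which is 38 to 64 counts in pSNL and 31 to 40 counts in sham. Replicates 2 and 3 of pSNL exceeded each sham library and pSNL replicate 1 did not. The log2 fold change was 0.49 ± 0.25 (SE; 95% interval -0.075 to 1.05; adjusted p = 0.392), and it was positive in all 15 alternatives (0.30 to 0.74). Rgs8, known from cerebellar Purkinje cells and from speeding the gating of G protein-coupled potassium channels, stood at 5.90, 10.4 and 5.05 CPM in pSNL against 8.94, 4.82 and 9.42 CPM in sham. Its groups lay across each other, at a log2 fold change of -0.12 ± 0.35 (SE; adjusted p = 0.909). Rgs16 was near the limit of detection, at 6, 11 and 3 counts in pSNL and 5, 6 and 9 counts in sham, and did not pass the filter. Those sums of 20 counts in each group show no difference that this depth could resolve.

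Rgs9, the second R7 member, is known from photoreceptors and the striatum and was the lowest of the 10 by mean FPKM in each group. It had 4, 7 and 7 counts in pSNL replicates 1 to 3 and 4, 5 and 19 counts in sham replicates 1 to 3, and was not tested for its low counts. Its highest value lay in sham replicate 3, the library with central glia RNA, and the part of that RNA was not tested. Fitted with no filter on low counts, Rgs9 and Rgs16 had adjusted p-values of 0.693 and 0.999. The RZ gene Rgs17, whose product acts on the αz subunit and on signals of the μ opioid receptor, stood at 6.13, 7.40 and 5.96 CPM in pSNL against 6.42, 8.26 and 11.7 CPM in sham. Sham replicate 3 was again the highest, and the log2 fold change of -0.44 ± 0.28 (SE; adjusted p = 0.498) was -0.18 without that library. Rgs19, also named GAIP, a regulator of Gi-class α subunits, stood at 27.5, 25.0 and 17.2 CPM in pSNL against 17.0, 27.1 and 24.1 CPM in sham. Its groups covered the same range, at a log2 fold change of 0.03 ± 0.22 (SE; 95% interval -0.46 to 0.52; adjusted p = 0.962).

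**Figure D4:**
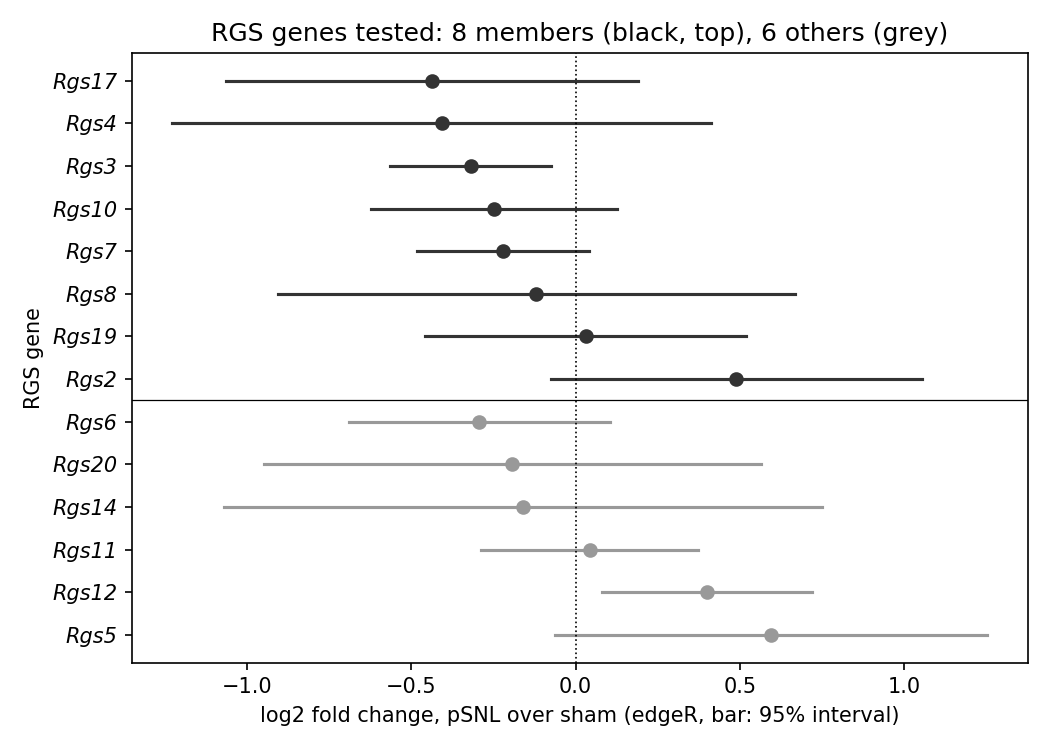
Dots give the log2 fold change of pSNL over sham from edgeR and bars its unadjusted 95% interval, for the 8 tested members above the line and 6 other RGS genes below it. Among the members the bar of Rgs3 alone ends below 0 (-0.56 to -0.075), and among the others that of Rgs12 alone lies above it (0.081 to 0.72); neither gene passed the adjusted threshold.

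Outside the 10, 8 more RGS genes of a list of 11 were in the files and 6 were tested. None of the 6 passed the threshold in edgeR's test or in DESeq2, 1 had an unadjusted p under 0.05, 3 were positive and their median log2 fold change was -0.059. Rgs12, a large multi-domain R12 protein, stood at 29.5, 39.5 and 33.7 CPM in pSNL against 25.9, 24.3 and 27.6 CPM in sham. Each pSNL value exceeded each sham value (11.1% of all tested genes did so), and the log2 fold change was 0.40 ± 0.14 (SE; adjusted p = 0.224). Rgs6, an R7 relative of Rgs7, stood at 14.5, 12.7 and 11.7 CPM in pSNL against 17.7, 15.1 and 14.9 CPM in sham. Its pSNL values all lay below its sham values (10.4% of all tested genes), at a log2 fold change of -0.29 ± 0.18 (SE; adjusted p = 0.468). Rgs5, a marker of pericytes and other mural cells, stood at 12.5, 11.8 and 10.1 CPM in pSNL against 5.27, 6.20 and 11.3 CPM in sham (adjusted p = 0.374). The 9 mural cell markers, Rgs5 among them, summed to 250.7 to 295 CPM in pSNL and 215 to 273 CPM in sham.

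Rgs1, an R4 gene known from lymphocytes and activated myeloid cells and singled out after its values were seen, was near 0 in 4 libraries and not in the other 2. It had 6, 107 and 78 counts in pSNL replicates 1 to 3, against 8, 3 and 0 counts in sham replicates 1 to 3. Replicates 2 and 3 of pSNL stood at 24.7 and 17.9 CPM, and the other 4 libraries at 0 to 1.83 CPM. It did not pass the filter on low counts with all 6 libraries. With no filter its adjusted p was 0.36, and without pSNL replicate 1 it passed the threshold (log2 fold change 4.62, edgeR adjusted p = 0.0221). That fit called 1.92% of its genes. Of the 6 fits with 1 library left out, 4 tested Rgs1 and 1 called it. Without both pSNL replicate 1 and sham replicate 3 it passed as well (log2 fold change 4.05, edgeR adjusted p = 0.000477). Both fits that called it left out pSNL replicate 1, the pSNL library with the lowest Rgs1 count, so they were bound to raise the pSNL mean. Beside it, the 14 macrophage markers summed to 331, 552 and 561 CPM in pSNL replicates 1 to 3 and to 209, 192 and 256 CPM in sham replicates 1 to 3, with 13 of the 14 at a positive log2 fold change. The 9 lymphocyte markers found summed to 4.62 to 4.82 CPM in pSNL and 2.99 to 4.36 CPM in sham. Of these 9 only 1, Lck, passed the filter on low counts (log2 fold change 0.26, edgeR adjusted p = 0.853). The part of either cell type in the Rgs1 counts was not tested.

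The partners and targets of RGS proteins were read from 10 lists with 89 tested genes. None of these passed the threshold in edgeR's main fit, with all 6 libraries, the default filter on low counts and no replicate block. Of the 89, 14 had an unadjusted p under 0.05, against 15.5% of all tested genes, and DESeq2 called 2, against 3.02% of all genes. Gnb5, the obligate β partner of Rgs7 and Rgs9, stood at 44.0, 44.2 and 41.5 CPM in pSNL against 46.3, 44.1 and 51.2 CPM in sham (log2 fold change -0.13 ± 0.11 SE, adjusted p = 0.616). Rgs7bp, which anchors R7 complexes at the membrane, averaged 17.4 ± 6.14 CPM in pSNL and 12.5 ± 2.97 CPM in sham, with overlapping groups (adjusted p = 0.468). Gpr158, an orphan receptor that binds Rgs7, averaged 214 ± 4.03 CPM in pSNL and 193 ± 27.5 CPM in sham (adjusted p = 0.548). Of 12 tested α subunits 7 were negative. Gnaq, the α subunit of Gq, stood at 13.2, 20.3 and 6.19 CPM in pSNL against 5.50, 5.28 and 3.45 CPM in sham. Each pSNL value exceeded each sham value, and the log2 fold change was 1.47 ± 0.42 (SE; edgeR adjusted p = 0.15). DESeq2 called Gnaq (adjusted p = 0.0369), as did edgeR without pSNL replicate 3 (adjusted p = 0.0409). That library held the lowest pSNL value of Gnaq, so leaving it out was bound to raise the pSNL mean. The other fits with 1 library left out did not call Gnaq (edgeR adjusted p = 0.212 to 0.445). Gnai1, a Gi subunit, averaged 83.7 ± 5.81 CPM in pSNL and 97.2 ± 5.45 CPM in sham (edgeR adjusted p = 0.319). Among 11 tested β and γ subunits Gng2 had the smallest p, at 367, 431 and 392 CPM in pSNL against 325, 325 and 307 CPM in sham (log2 fold change 0.31 ± 0.086 SE, edgeR adjusted p = 0.126).

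The kinases, modulators, effectors and receptors gave the same count of 0 called in edgeR's main fit. Of 6 tested GRKs and arrestins, which silence receptors, Grk6 stood at 91.7, 114 and 97.0 CPM in pSNL against 83.7, 81.0 and 68.7 CPM in sham (edgeR adjusted p = 0.167). Of 7 tested G protein modulators Gpsm3 had the smallest p (adjusted p = 0.306), and of 7 tested adenylyl cyclases Adcy6 and Adcy7 did (adjusted p = 0.23 and 0.242). The 3 phospholipase C β genes and the 4 GIRK potassium channel genes tested had no unadjusted p under 0.05. Of 21 tested Gi/o-coupled receptors 3 had one, near the 15.5% of all tested genes. These were Adra2c, Cnr1 and Grm4, each with a negative log2 fold change (-0.61, -0.54 and -0.35) and an edgeR adjusted p of 0.208, 0.25 and 0.299. Over that list 10 log2 fold changes were negative and 11 positive. Of 15 tested Gq-coupled receptors 3 had an unadjusted p under 0.05, against the same 15.5%. Cckbr, a cholecystokinin receptor, stood at 3.63, 11.8 and 9.86 CPM in pSNL against 1.38, 0.69 and 1.61 CPM in sham, at a log2 fold change of 2.75 ± 0.52 (SE). Its edgeR adjusted p was 0.0574 in the main fit, and DESeq2 called it (adjusted p = 0.000786). With all 6 libraries edgeR also called it with no filter on low counts (adjusted p = 0.0282) and with the replicate block (adjusted p = 0.0495). Without pSNL replicate 1 edgeR called it as well (adjusted p = 0.00628). That library held the lowest pSNL value of Cckbr, so leaving it out was bound to raise the pSNL mean. The other fits with 1 library left out did not call Cckbr (edgeR adjusted p = 0.0883 to 0.218). F2r, a thrombin receptor, and Mrgprd, a receptor of non-peptidergic nociceptors, had negative log2 fold changes of -0.44 and -0.89 (edgeR adjusted p = 0.131 and 0.173).

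**Figure D5:**
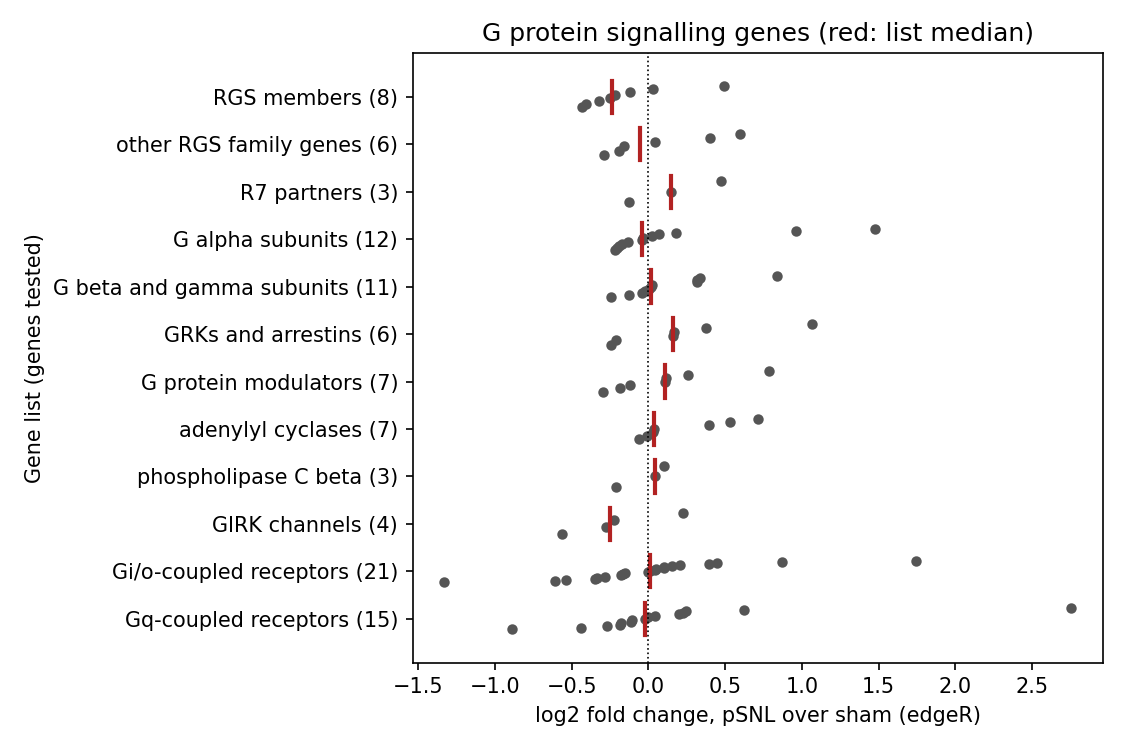
Each dot is the log2 fold change of pSNL over sham of a tested gene, by list, with the list's median in red and the median of all tested genes (-0.0024) as a dotted line. The RGS members have a median of -0.23 and GIRK channels -0.25, and the medians of the other 10 lists lie between -0.059 and 0.16.

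Genes with a profile most like that of Rgs3 were found by the root mean square difference of log2 CPM, each gene centred on its mean over the 6 libraries. The nearest were Dok4, an adaptor of receptor tyrosine kinases, at 0.024, Zc2hc1a at 0.034 and Pla2g3, a secreted phospholipase A2, at 0.035 on the log2 scale, where the median tested gene was at 0.27. Dok4 stood at 293, 229.8 and 247 CPM in pSNL replicates 1 to 3, against 352, 330.5 and 279.7 CPM in sham replicates 1 to 3. Like Rgs3, it was lowest in pSNL replicate 2, and sham replicate 3 lay below pSNL replicate 1. Dok4 was picked by its likeness over the same 6 libraries, so the shared pattern follows from the choice.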

How the data were processed

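Estimated counts and FPKM values per gene were read from 1 deposited file per library, for 3 pSNL and 3 sham libraries grouped by sample title. Per the labels' protocols, RNA was extracted with Trizol. CASAVA 1.4 and Bowtie2 are named in the submitters' processing notes. No source used here gives the quantifier, genome build, annotation or use of strand. Per the file headers, the authors deposited expected counts, which were rounded to whole numbers here. FPKM was computed by the authors, per the file headers. Genes a file does not list were set to 0. Gene IDs were named from RefSeq's GRCr8 gene table (14227 by gene ID, 16 by transcript accession, 103 kept by ID). The comparison used edgeR 4.0.16 in R 4.3.3 (TMM, default filter on low counts, robust quasi-likelihood F test, Benjamini-Hochberg over 11091 genes, adjusted p of 0.05). SEs were derived from the F statistic, and log2 CPM used a prior count of 2. Alternatives used DESeq2 1.42.0, limma 3.58.1 on log2(FPKM + 1), other scalings and filters, unrounded counts, a replicate block and 6 fits with 1 library left out, and 1 fit without both pSNL replicate 1 and sham replicate 3, added after seeing the data. On simulated counts for this comparison, 11156 genes were tested and 8 calls were false. The fit called 23.9% of genes changed 1.41-fold, 84.6% of those changed 2-fold and 100% of those changed 4-fold. Every simulated gene had the same dispersion, only genes above a count minimum were changed, and no library was made to stand apart. The shares therefore do not measure the power of the fit on the real libraries. The members and lists were chosen with earlier results of these data known. Named genes are all members, other RGS genes with the 3 smallest p, up to 3 genes with the smallest p in each other list, and the 3 genes most like the member with the smallest p. Whether replicates pair was checked by the correlation of same-numbered libraries' deviations from their group means (0.032, 0.011 and 0.12 for numbers 1, 2 and 3). Differently numbered libraries gave -0.10 to 0.10. With 3 libraries a group this check cannot exclude pairing. The numbers were not taken as pairs in the main fit, and the replicate block is given as an alternative.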

Additional observations from a re-analysis of the deposited data

How the results depend on the processing

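Of the 15 alternatives, 14 called none of the 8 tested RGS genes. The fit without both pSNL replicate 1 and sham replicate 3, chosen after seeing the data, called 3 of these 8, and 390 genes in all. The libraries left out held the highest pSNL value and the lowest sham value of each of the 3, so each difference was bound to widen. Why more genes were called in all was not tested. Of the 120 log2 fold changes of the 8 genes, 112 kept their sign. The signs that turned belonged to Rgs8 and Rgs19, whose values lay near 0, in 3 fits each with 1 library left out and in the fit without both (0.17 for Rgs8 and -0.061 for Rgs19). Over the 6 fits with 1 library left out Rgs8 ranged from -0.50 to 0.074 and Rgs19 from -0.14 to 0.20. The count of genes called among all tested, 51 here, was 334 with DESeq2, 89 with no filter on low counts and 111 with the replicate block; the cause was not tested. With 1 library left out it ranged from 5 (without sham replicate 2) to 217 (without pSNL replicate 1), with 9 without pSNL replicate 2, 96 without pSNL replicate 3, and 21 and 33 without sham replicates 1 and 3. The replicate block called none of the 8 RGS genes. At the depth of these libraries, Rgs9 and Rgs16 had at most 19 counts in a library, and no difference in them could be resolved.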

Other observations

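Measured against the summed level of 15 neuron markers, a ratio chosen after values were seen, Rgs4 stood at 19.2, 9.65 and 11.3 per 1000 CPM of neuron markers in pSNL replicates 1 to 3, against 16.7, 16.3 and 14.3 in sham replicates 1 to 3. Sham replicate 3 lay nearer to the other sham libraries on this scale than in CPM, and pSNL replicate 1 lay above them. Rgs3 stood at 6.50, 5.63 and 5.91 in pSNL against 6.86, 6.52 and 6.67 in sham, so its groups no longer overlapped, by a margin of 6.50 against 6.52. In CPM the overlap rested on pSNL replicate 1 and sham replicate 3. Their neuron marker sums were the highest in pSNL (51622 CPM) and the lowest in sham (48790 CPM). The division was therefore bound to lower pSNL replicate 1 against sham replicate 3. The share of all genes without overlap on this scale was not computed. Rgs10 (1.93 to 2.65 in pSNL and 2.25 to 2.57 in sham) and Rgs7 (0.941 to 1.21 in pSNL and 1.05 to 1.27 in sham) overlapped. Of the 15 neuron markers 8 had a negative log2 fold change, against 50.6% of all tested genes. An unadjusted p under 0.05 was found for 7, against 15.5% of all tested genes. edgeR called 0 of the 15, against 0.46% of all tested genes, and DESeq2 called 4, against 3.02%. In DESeq2 Snap25, Nefl and Syp were lower in pSNL and Stmn2 was higher. The sum used in this ratio thus includes genes that differed between the groups.

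The profile of Rgs4 over the libraries, compared in the same way as that of Rgs3 but added after values were seen, was nearest to that of Kcns3, a modifier subunit of voltage-gated potassium channels. Kcns3 stood at 97.6, 50.9 and 62.8 CPM in pSNL replicates 1 to 3, against 96.7, 108.6 and 82.5 CPM in sham replicates 1 to 3, a root mean square difference of 0.095 on the log2 scale where the median tested gene was at 0.47. Like Rgs4, it was high in pSNL replicate 1 and low in the other pSNL libraries, which follows from how it was picked.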
